A study of Mus musculus with 4 samples.

Results

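CpG island methylation was examined in wild type J1 mouse embryonic stem cells, on the single array of these cells, 1 of 4 arrays in a study of Parp-1 wild type and deficient cells. The other arrays, of Parp-1 deficient and inhibitor treated cells, were not used. J1 is an established embryonic stem cell line derived from a male embryo, and the sources used here give no treatment, passage or culture condition for it. Methylated fragments of the sonicated DNA were immunoprecipitated (IP) through 5-methylcytidine, an assay called MeDIP, and carried Cy5, while the whole sonicated DNA of the same cells carried Cy3. All islands of the array were described: of 97651 probes, 95686 fell into 14124 islands, here runs of at least 3 probes whose starts lay at most 500 bp apart. An island's value is the mean log2 of IP over whole DNA across its probes, with the array median set to 0, so a value of 0 marks the middle of the array and not an absence of methylation. With 1 array there is no replicate, and no difference below was tested. An SD or standard error (SE) stands for the spread over the probes of an island, which share 1 hybridisation.

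CpG islands are stretches rich in CG dinucleotides that often hold gene starts. In most tissues the islands at active promoters carry little methylation, while those at imprinted genes are methylated on 1 parental copy, a mark set in the germ line and kept after fertilisation. Clustered protocadherin genes and genes of the germ line are other known sites of island methylation, and Hox and histone genes are known for islands with little of it. The antibody needs several methylated CG pairs in a fragment, so the IP signal depends on CG density as well as on methylation.

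The gene starts below, from RefSeq (GRCm38.p6), show what such DNA looks like at 4 imprinted genes whose locus held a strongly enriched island and at a pair of histone genes of the cluster that held the lowest islands. Nnat encodes neuronatin, Plagl1 and Peg3 zinc finger proteins, Nap1l5 a relative of nucleosome assembly proteins, H1f3 a linker histone and H4c4 a core histone. Each is the 250 bases before the start, 5′ to 3′ on the gene's strand, with every CG in capitals: chr2:157559828-157560077 for Nnat and chr10:13090582-13090831 for Plagl1, chr13:23554782-23555031 for H1f3 and chr13:23581318-23581567 for H4c4 on the plus strand, and chr7:6730420-6730669 for Peg3 and chr6:58907127-58907376 for Nap1l5 on the minus strand.
Nnat: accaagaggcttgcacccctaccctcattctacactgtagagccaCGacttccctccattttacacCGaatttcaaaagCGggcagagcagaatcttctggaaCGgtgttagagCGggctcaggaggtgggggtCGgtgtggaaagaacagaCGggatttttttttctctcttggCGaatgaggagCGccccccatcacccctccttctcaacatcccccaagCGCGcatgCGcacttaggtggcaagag
Plagl1: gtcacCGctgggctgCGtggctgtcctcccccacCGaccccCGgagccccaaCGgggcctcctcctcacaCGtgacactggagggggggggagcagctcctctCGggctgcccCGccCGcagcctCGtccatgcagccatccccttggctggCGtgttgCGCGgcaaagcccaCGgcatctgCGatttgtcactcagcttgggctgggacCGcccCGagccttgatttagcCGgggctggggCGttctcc
Peg3: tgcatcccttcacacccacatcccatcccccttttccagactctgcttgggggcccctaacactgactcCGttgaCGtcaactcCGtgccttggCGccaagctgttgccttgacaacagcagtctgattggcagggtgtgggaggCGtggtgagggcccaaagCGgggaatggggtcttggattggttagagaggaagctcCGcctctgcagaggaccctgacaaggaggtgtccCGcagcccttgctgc
Nap1l5: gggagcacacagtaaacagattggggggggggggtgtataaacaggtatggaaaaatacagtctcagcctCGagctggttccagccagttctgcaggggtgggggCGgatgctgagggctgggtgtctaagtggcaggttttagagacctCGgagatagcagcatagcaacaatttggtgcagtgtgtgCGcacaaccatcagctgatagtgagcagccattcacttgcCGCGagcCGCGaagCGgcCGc
H1f3: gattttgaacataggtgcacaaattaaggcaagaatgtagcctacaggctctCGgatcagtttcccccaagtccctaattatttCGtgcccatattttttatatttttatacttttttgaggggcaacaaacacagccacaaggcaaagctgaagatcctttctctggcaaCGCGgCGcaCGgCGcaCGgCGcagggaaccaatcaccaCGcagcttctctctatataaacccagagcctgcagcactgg
H4c4: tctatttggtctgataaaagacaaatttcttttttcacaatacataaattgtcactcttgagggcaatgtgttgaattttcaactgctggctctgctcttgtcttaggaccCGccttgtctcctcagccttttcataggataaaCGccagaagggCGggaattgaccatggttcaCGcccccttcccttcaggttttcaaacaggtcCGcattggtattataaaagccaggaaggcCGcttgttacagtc
The letters CG, which read the same on both strands, occur 12 times before Nnat, 19 times before Plagl1, 8 times before Peg3, 10 times before Nap1l5, 10 times before H1f3 and 6 times before H4c4, where the median of 32851 promoters of this length is 6. The share of those promoters with as many or more was 33.5% for Nnat, 19.7% for Plagl1, 43.0% for Peg3, 37.8% for Nap1l5, 37.8% for H1f3 and 50.4% for H4c4. The histone starts thus lie within the range of the imprinted ones or just below it. The probes are placed on another build, so whether they cover these exact bases was not established, and the counts describe the stretch only.

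Most islands lay near the array median, and a distinct minority lay far above it. The median island was at -0.01, the quartiles were -0.63 and 0.74, and single islands ran from -3.30 to 4.74. At 2 or above, which is at least 4 times the array median and is called strongly enriched here, there were 1405 of 14124 islands, 9.95% (exact 95% interval 9.46 to 10.5%). At -1 or below, called low here, there were 1814, 12.8% (12.3 to 13.4%). These intervals cover the counting of islands on this array only. The strongly enriched share was 6.10% with normexp background correction, 5.61% after an intensity loess and 5.31% over islands of at least 5 probes, and the low share was 2.10% with normexp, 5.70% after loess and 8.41% over probes with both signals well above background.

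The upper end did not simply thin out. Counts per 0.5 units fell from 353 islands between 2 and 2.5 to 252, 214 and 215 in the next steps, then rose to 319 islands between 4 and 4.5 before falling to 52 above that. In all, 371 islands (2.63%) lay at 4 or above. With normexp the scale was shorter and the same rise stood between 3 and 3.5, with 311 islands after 228 in the step before. After the intensity loess, by contrast, counts fell without a rise, from 350 between 2 and 2.5 to 283 and 121. Over islands of at least 5 probes, without these corrections, the rise was small, from 76 between 3.5 and 4 to 86 between 4 and 4.5.

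**Figure D1:**
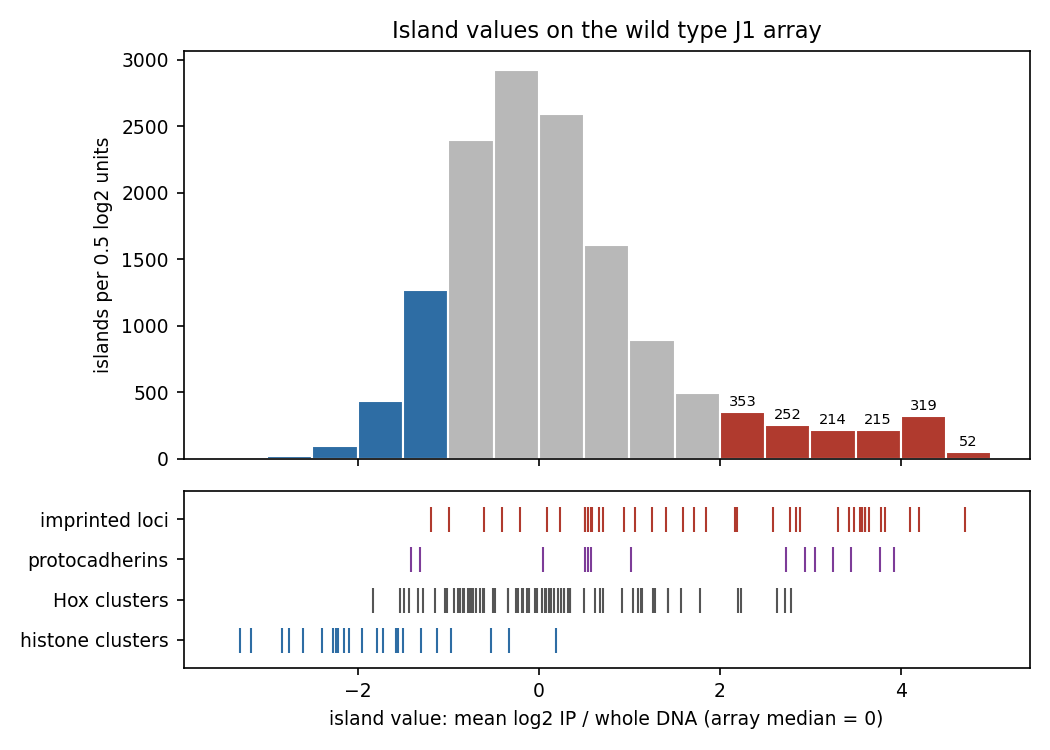
Number of islands per 0.5 log2 units (top; red at 2 or above, blue at -1 or below) and the values of single islands at imprinted loci, protocadherins, Hox clusters and histone clusters (bottom; each tick is 1 island). The counts printed above the red bars rise again to 319 between 4 and 4.5, and 20 of 41 imprinted ticks lie at 2 or above while 19 of 23 histone ticks lie at -1 or below. The lists were chosen with earlier results of these data known.

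Strongly enriched islands were also the most even ones. The median SD over the probes of an island was 1.04 for islands between -1 and 0, 0.59 between 1 and 2, 0.33 between 2 and 3, 0.24 between 3 and 4, and 0.18 at 4 or above. Repeat spots of 22 control sequences had a median SD of 0.16, so probes of the highest islands differed little more than repeats of 1 sequence. Among islands at 4 or above, 98.1% had an SD under 0.5, against 22.0% of all islands. Of all islands, 40.0% had an SD of 1 or more. Detection of the IP signal moved with this. In islands at 4 or above 99.9% of probes were well above background, and in islands at -1 or below 82.3%. Island size moved with it too. The median SD was 0.57 for islands of 3 to 4 probes and 1.16 for those of 15 or more. Islands at 4 or above had a median of 4 probes, and all islands 6. No island of the array was above 4.74, so a mean of 4 or above leaves little room for a low probe. The parts of this upper limit, of detection and of size in the spread were not tested.

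**Figure D2:**
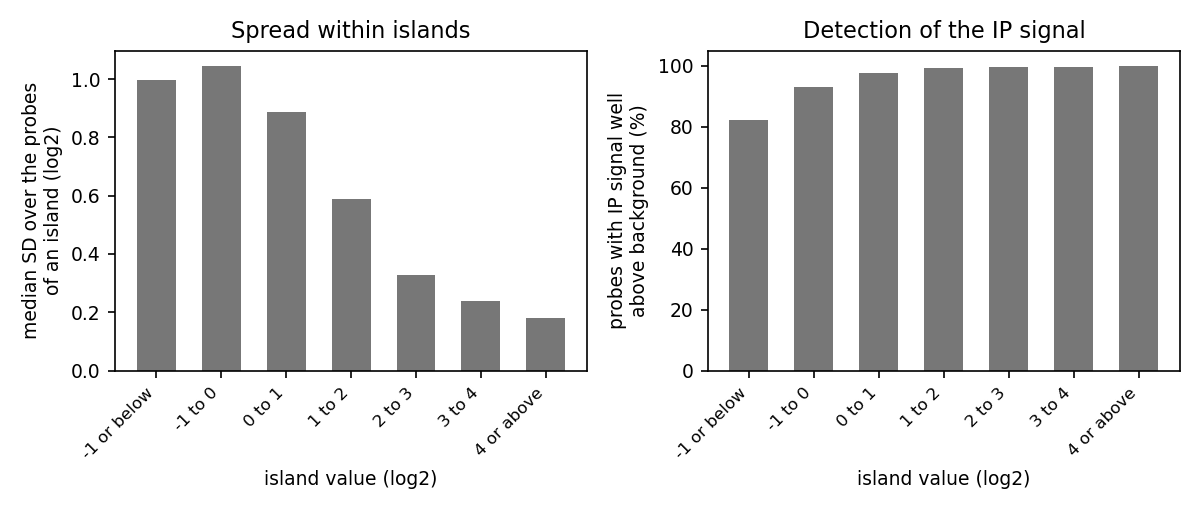
Median SD over the probes of an island (left, log2 units) and share of probes with Cy5 (IP) signal well above background (right, percent) by island value. The SD is 0.18 at 4 or above and 1.04 between -1 and 0, and the detected share is 82.3% in the lowest class.

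Enrichment was concentrated in short islands. Among islands of 3 to 4 probes the median was 0.40 and 21.3% (873 of 4100) were strongly enriched. The shares were 8.31% with 5 to 6 probes, 3.85% with 7 to 9, 2.40% with 10 to 14 and 1.68% (9 of 535) with 15 or more, where the median was -0.31. The difference of medians between the shortest and longest class was 0.71, and it was 0.38 with normexp, 0.48 after loess and 0.46 with detected probes only. Single probes had the same order, in that 23.5% of probes in the shortest islands and 5.92% in the longest lay at 2 or above. By length, 28.5% of the 641 islands of up to 300 bp were strongly enriched and 1.35% (5 of 370) of those over 2000 bp.

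The share of low islands had no such order, while that of low probes did. Low islands made up 11.8% of islands of 3 to 4 probes, 15.02% of those of 7 to 9 and 10.3% of those of 15 or more. Single probes at -1 or below made up 16.7% of probes in islands of 3 to 4 probes, 21.4% with 5 to 6, 26.3% with 7 to 9, 29.1% with 10 to 14 and 30.9% with 15 or more. By length that share went from 12.2% up to 300 bp to 31.6% over 2000 bp. The strongly enriched share fell as the whole DNA signal rose. Over 5 equal groups of islands ordered by Cy3 signal, 15.1% were strongly enriched in the dimmest group and 6.34% in the brightest. That share is linked by construction to the whole DNA signal, which is the denominator of the island value. The part of that signal in the relation to island length was not tested. By probe length the median moved but the enriched share hardly did: probes of 46 bases or more had a median of -0.66 with 9.98% at 2 or above, and those of 45 bases 0.14 with 10.5%. The 47 probes of 44 bases had a median of -0.02, with 21.3% at 2 or above.

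**Figure D3:**
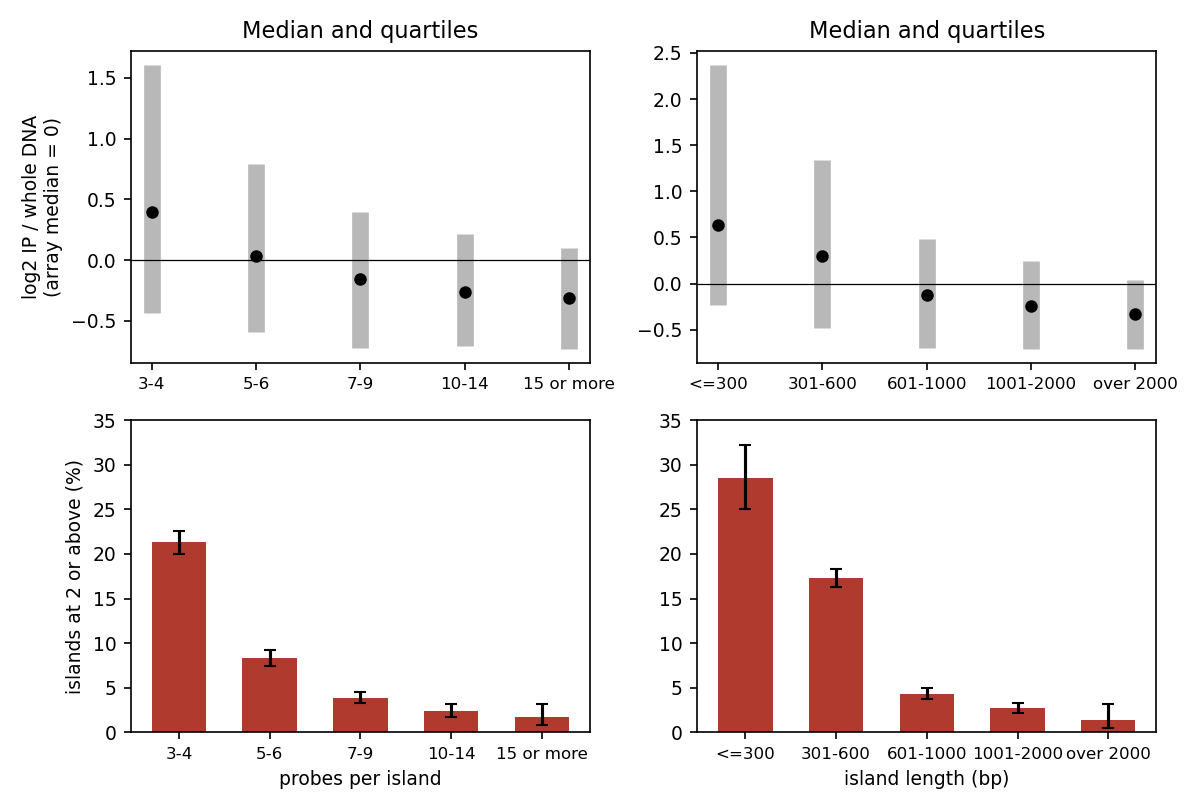
Median and quartiles of the island value (top, log2 units) and share of islands at 2 or above (bottom, percent, with exact 95% intervals) by number of probes (left) and by length (right). The share falls from 21.3% to 1.68% with the number of probes and from 28.5% to 1.35% with length.

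Within islands the ends differed slightly from the middle, with a sign that changed with the processing. In the 10024 islands of 5 or more probes the outermost pair lay a median of -0.12 from the probes between them, with quartiles of -0.67 and 0.38. That difference was 0.10 with normexp and 0.24 after loess, with the opposite sign. In the 53 strongly enriched islands of 10 or more probes, the outer stretches had medians of 3.37 and 3.33 and the central stretch 2.84. Their quartiles overlapped widely, from 2.20 to 3.54 in the central stretch. Among islands of 5 or more probes the ends lay lower in the most enriched ones, by a median of -0.15 at 4 or above, where 26.0% had higher ends, and of -0.09 between 3 and 4, where 41.9% did.

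Autosomes differed in the shares of enriched and low islands. The strongly enriched share ran from 7.92% on chromosome 1 (61 of 770 islands) to 13.4% on chromosome 15 (84 of 626). Their exact intervals were 6.11 to 10.1% and 10.8 to 16.3%. Both chromosomes were picked as the extremes of the autosomes, so the gap between these intervals is no test of a difference. Chromosome 8 had the lowest median, -0.21, the largest low share, 18.5% (15.9 to 21.4%), and a strongly enriched share of 12.2%. Its whole DNA signal also stood 0.49 log2 units above that of the autosomes, while the other autosomes lay between -0.16 and 0.05 of it. The IP signal stood higher there as well, with a median log2 Cy5 of 9.86 on chromosome 8 and 9.49 on the autosomes. The parts of copy number and of methylation in the median ratio were not tested and cannot be told apart here. Against the other autosomes, the strongly enriched share of chromosome 8 was higher as reported (12.2% against 9.82%) and with normexp (7.90% against 6.01%), but not after loess (5.31% against 5.49%).

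The X chromosome had a higher median than the autosomes, except among its shortest islands. Its 390 islands had a median of 0.26, which was 0.28 above that of 13728 autosomal islands, and its quartiles were -0.31 and 0.88. The difference was 0.45 with normexp, 0.83 after loess and 0.44 with detected probes. Low islands were rarer on X, 6.67% (4.40 to 9.62%) against 13.02% (12.5 to 13.6%), and 51.3% against 39.2% lay between 0 and 2. The strongly enriched share was 8.97% on X and 9.97% on autosomes, and the interval for X, 6.33 to 12.3%, holds both. Among islands of 3 to 4 probes it was 14.2% on X and 21.5% on autosomes. By size, X minus autosomes was -0.04 for islands of 3 to 4 probes and 0.37, 0.36 and 0.31 for those of 5 to 6, 7 to 9 and 10 or more. The whole DNA signal of X lay 0.95 log2 units below that of the autosomes, and its part in the shift was not tested.

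**Figure D4:**
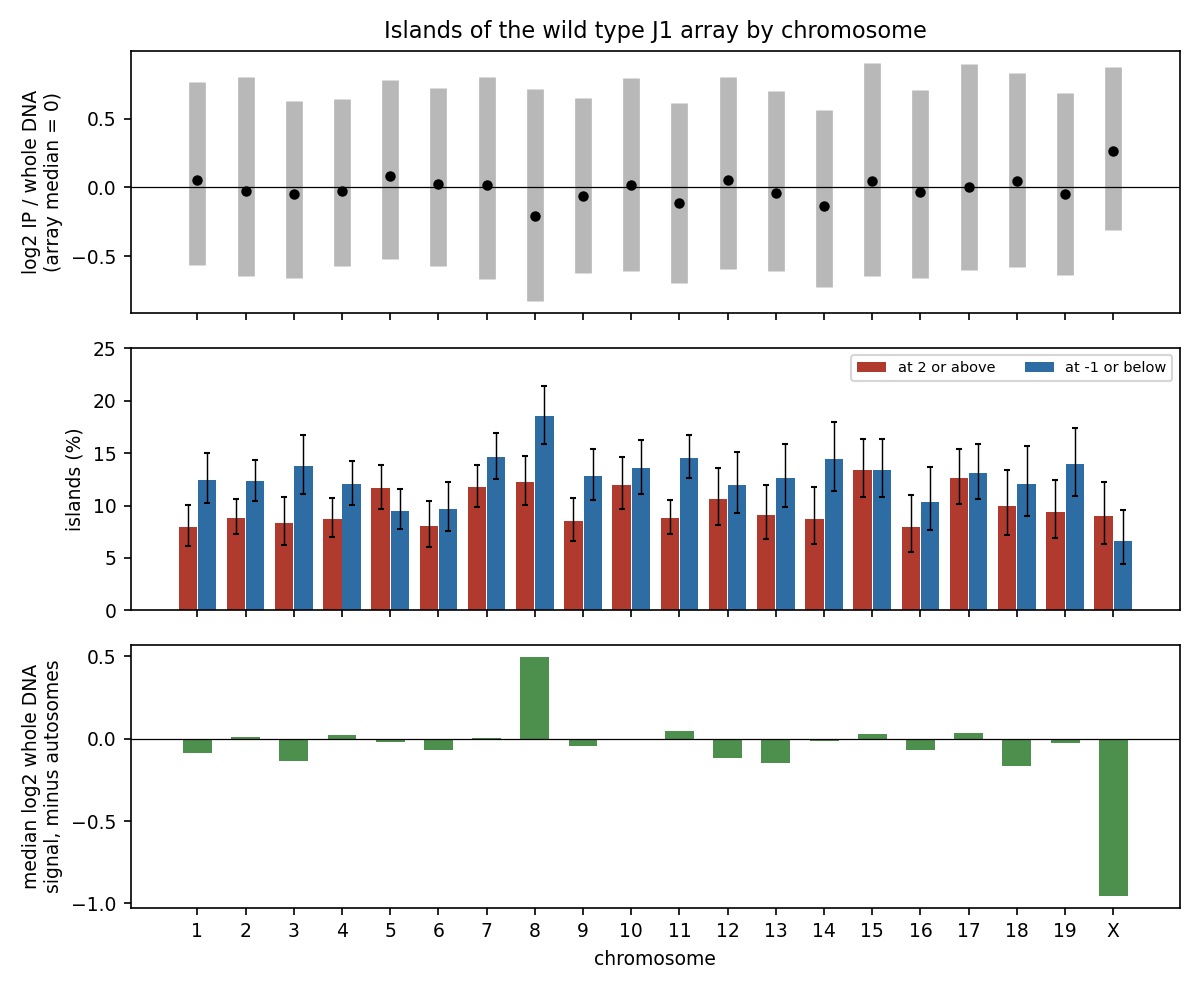
Island values by chromosome (top, median and quartiles in log2 units), shares of islands at 2 or above and at -1 or below (middle, percent, exact 95% intervals), and median log2 Cy3 signal of all positioned probes, in islands or not, minus that of the autosomes (bottom). Chromosome 8 stands 0.49 above the autosomes in whole DNA and X stands 0.95 below.

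Islands within 1 kb of each other had like values, and a few stretches held several enriched islands in a row. Across pairs of neighbours on this array, which share their hybridisation, Pearson's r was 0.55 for the 341 pairs within 1 kb, 0.29 from 1 to 5 kb, 0.19 from 5 to 20 kb and 0.05 beyond 100 kb. The median absolute difference was 0.76 within 1 kb, but 0.99 from 1 to 5 kb and 0.97 from 5 to 20 kb, not below the 0.93 of pairs beyond 100 kb. After a strongly enriched island, the next one within 1 to 5 kb was strongly enriched in 36.6% of 123 pairs, where 14.4% of all such neighbours were. The run with the most strongly enriched islands spanned 101 kb of chromosome 8, from 46449325 to 46550419, with 8 islands of 36 probes at 3.19 to 4.50. All 8 stayed at 2 or above with normexp, and 6 after loess. Runs of 5 lay on chromosome 15 from 75999499 to 76011116 (51 probes, 2.79 to 4.46), on chromosome 8 from 111689226 to 112230080 (2.62 to 4.57), and on chromosome 12 from 109847344 to 110637579 (2.16 to 4.20), the last beginning at the Dlk1 locus.

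The 12 highest islands of at least 5 probes lay between 4.52 and 4.71 on 9 chromosomes, 22.9 to 26.1 times the array median. All 82 of their probes had an IP signal well above background, and their SE over probes was 0.03 to 0.11, so the order among most of them is within that error. First was an island of 7 probes on chromosome 15 from 72636711 to 72637448, at 4.71 (SE 0.09), in the window of Peg13, an imprinted noncoding RNA inside Trappc9. Its probes read 4.30, 4.77, 4.72, 4.54, 4.80, 5.03 and 4.78. All were above 4, the level reached by 2.63% of islands.

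Next came islands on chromosome 8 from 108868065 to 108868710 at 4.66 (SE 0.05), on chromosome 17 from 27162245 to 27162839 at 4.64 (SE 0.06), and on chromosome 5 from 105721111 to 105721588 at 4.63 (SE 0.08). The highest island of 15 or more probes lay on unplaced sequence assigned to chromosome 1, from 91456 to 93386. It stood at 4.57 (SD 0.10 over 15 probes), with every probe between 4.40 and 4.73. A second long island on unplaced sequence, of 14 probes, was at 4.38, and these were the 2 enriched ones among 6 islands on such sequence. With normexp the 12 lay at 3.53 to 3.74 and after loess at 2.58 to 3.73, at 2 or above in both.

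The 12 lowest islands of at least 5 probes lay between -3.18 and -2.49, but the IP signal was well above background for only 31 of their 75 probes and the other probes have only an upper bound. The lowest, on chromosome 13 from 23592375 to 23592850, read -2.11, -4.23, -3.02, -3.01 and -3.55 and had no probe above background. On chromosome 8 from 78005521 to 78006058 the mean was -3.05 (SE 0.33), with 3 of 5 probes detected at -2.73, -2.70 and -2.24. With normexp the 12 lay between -1.37 and -0.35, and after loess between -2.07 and -1.05, below 0 in both. The lowest island of 15 or more probes, on chromosome 11 from 29072076 to 29073638, was at -2.05 (SE 0.21) with 13 of 16 probes detected.

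The largest islands on the array were near or below the median and uneven. The 5 with the most probes had 39 to 45 probes, values of -0.98 to -0.12 and SDs of 1.18 to 1.60, and 179 of their 207 probes were detected in the IP channel. A pair of them were neighbours on X, from 11233774 to 11238987 at -0.21 and from 11243846 to 11249050 at -0.47.

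The 5 least even islands of at least 5 probes had SDs of 2.42 to 2.52, and each held probes on both sides of 0. On chromosome 1 from 138050527 to 138051197 the probes read -2.60, -1.62, 3.06, -2.32 and -3.20. On chromosome 6 from 100253180 to 100253743 they read 2.83, 2.56, 1.28, -2.52 and -1.78, all detected. The first is a single high probe and the other a step from high to low within the island.

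Islands at imprinted loci were strongly enriched more often than islands of the array as a whole. The list of loci was chosen with earlier results of these data known. Of 21 windows written for imprinted genes, 19 held an island and 15 held a strongly enriched one. Their 41 islands had a median of 1.85, and 20 (48.8%) were strongly enriched, where 9.95% of all islands were. With normexp or loess 16 of 41 (39.0%) were, beside 6.10% and 5.61% of all islands. The 20 had a median of 3.56, ran from 2.16 to 4.71, and had a median SD of 0.19 over their probes. Of these, 11 lay between 3 and 4, 6 between 2 and 3, and 3 at 4 or above. Most thus sat below the step between 4 and 4.5, where the counts of islands rose again. At Igf2r, Grb10, Zrsr1, Inpp5f, Nap1l5 and Nnat, 1 of the 2 islands in the window was strongly enriched.

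Loci of noncoding RNAs that silence their neighbours had enriched islands with little spread. That was not particular to them, since all islands between 3 and 4 had a median SD of 0.24. At Airn and Igf2r, the receptor that clears insulin-like growth factor 2, the island on chromosome 17 from 12584752 to 12585952 was at 3.60 (SD 0.18, 10 probes, 3.17 to 3.84), and a second one was at 1.41 (SD 0.99). At Kcnq1ot1, the RNA that silences the cell cycle inhibitor Cdkn1c, the island on chromosome 7 from 143104693 to 143106020 was at 3.55 (SD 0.14, 8 probes). The 4 others in that window lay at 1.85, 0.71, 0.54 and -1.19. The one at 0.54, of 16 probes, ran from 3.52 at its first probe to -1.13 at its last, with an SD of 1.58, and joining at 250 bp left 1.59 in its larger piece. Only 1 of the 5 islands of that window was thus strongly enriched.

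At Gnas, which encodes the stimulatory G protein alpha subunit, a pair of neighbouring islands on chromosome 2 stood at 3.82 (173940167 to 173940489, 3 probes) and 3.60 (173941465 to 173943988, 22 probes, SD 0.17). All 22 probes of the second lay between 3.07 and 3.84, which makes it the longest evenly enriched stretch among the imprinted loci. The other 3 islands of the window were at 0.51 (SD 1.60), 0.94 (SD 0.88) and -0.40 (SD 0.93). In the first of these the probes ran from -1.27 at one end to 2.35 at the other, and joining at 250 bp split it, with -0.47 in its larger piece.

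Grb10, Inpp5f, Plagl1 and Impact each had 1 strongly enriched island. Grb10, an adaptor that dampens insulin signalling, had an island on chromosome 11 from 11925467 to 11926345 at 3.65 (SD 0.13, 10 probes) and another at 0.23 (SD 1.45), or 0.79 with joining at 250 bp. Inpp5f, an inositol phosphatase gene, had islands at 3.79 (SD 0.21) and 0.51 (SD 0.27), and Plagl1 had 1 at 3.43 (SD 0.29, 8 probes, 2.93 to 3.74). Impact, a regulator of the kinase Gcn2, had a single island of 3 probes at 3.31. At Grb10 and Inpp5f the pair of islands differed by more than the SD of either. With normexp the Grb10, Inpp5f, Plagl1 and Impact islands stayed at 2 or above, and after loess Impact was at 1.99, just under that level.

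Peg3 is a zinc finger gene expressed from the paternal copy. Both islands of its window, which need not belong to Peg3 itself, were strongly enriched. They stood at 3.49 (chromosome 7 from 6333486 to 6334587, SD 0.24, 9 probes) and 2.58 (6300350 to 6300691, SD 0.23, 4 probes). Their probes did not overlap, with 3.18 to 3.75 in the first and 2.43 to 2.93 in the second. Mest, which encodes a hydrolase-like protein, was lowest among the single enriched islands, at 2.19 (SD 0.22, 6 probes, 1.88 to 2.47). Peg10, a gene derived from a retrotransposon and needed in the placenta, was at 2.78 (SD 0.17, 8 probes). With normexp the first Peg3 island stayed at 2.63, while the second (1.75), Mest (1.47) and Peg10 (1.998, just below the threshold) were under 2. After loess the second Peg3 island (1.78) and Mest (1.37) were, and Peg10 stayed at 2.34.

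Nnat, Nap1l5, Zrsr1 and Mcts2, which lie inside host genes, gave a mixed picture. All but Nnat are retrogenes, intronless copies that landed there. Nnat, which sits in Blcap, was at 3.57 (SD 0.19, 7 probes) beside an island at -0.21. Nap1l5, in Herc3, was at 2.84 (SD 0.19, 5 probes) beside one at 1.26, and Zrsr1, in Commd1, at 2.89 (SD 0.14, 9 probes) beside one at -0.60. The exception was Mcts2, in H13, whose islands were at -0.995 (SD 1.40) and 0.09 (SD 0.99). Neither Mcts2 island was enriched, although 11 of their 12 probes were detected.

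The Dlk1 and Meg3 region, where the methylated copy is the paternal one, was enriched throughout. Dlk1 is a Notch ligand relative and Meg3 a noncoding RNA. The window's 4 islands on chromosome 12 were at 3.60 (109847344 to 109847843, SD 0.52), 2.16 (109900751 to 109901755, SD 0.66), 4.10 (109907502 to 109907902, SD 0.35) and 4.20 (109975976 to 109976323, SD 0.13). The island at 2.16 was at 1.45 with normexp and 1.08 after loess. The last pair were, with Peg13, the only imprinted islands at 4 or above. Rasgrf1, a Ras exchange factor gene that is likewise methylated on the paternal copy, had 1 island of 19 probes at 1.06 (SD 1.03), whose probes ran from below 0 to 2.89.

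Besides Mcts2 and Rasgrf1, the windows without an enriched island were Slc38a4, an amino acid transporter gene, and Ndn. The Slc38a4 island was at 1.60 (SD 0.21, 3 probes). The 4 islands around Ndn and Magel2, genes of the MAGE family, were at 1.71, 0.57, 0.67 and 0.59. All 20 Ndn probes were detected, and the 3 lower islands had SDs of 0.96 to 1.13. The windows of H19 and Igf2 and of Snrpn held no island.

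**Figure D5:**
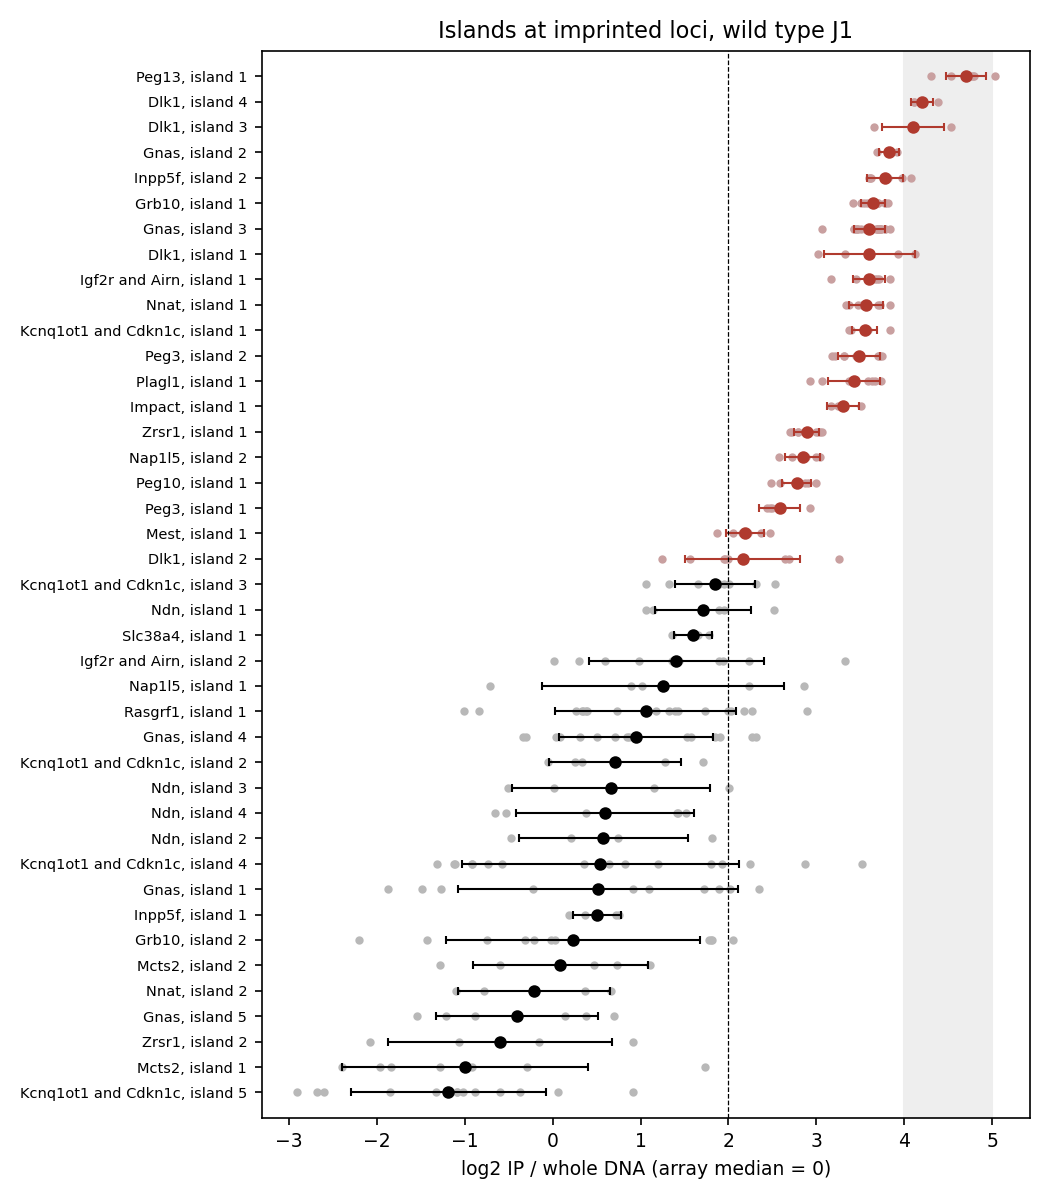
Islands in the windows of imprinted loci, ordered by value; small dots are single probes, large dots the mean, bars 1 SD over probes, red islands at 2 or above (dashed line), and the shaded band marks 4 to 5. The 20 red islands have short bars, with a median SD of 0.19, while most islands between -1.19 and 1.85 spread widely.

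Clustered protocadherins, cell surface proteins that give neurons distinct identities, had enriched islands mainly at the start of their cluster, where the alpha genes lie. The window on chromosome 18 was moved after values had been seen. It held 14 islands with a median of 1.88, and 7 of them were strongly enriched. Of all islands 9.95% were, and of those of 3 to 4 probes 21.3%. The first 4, of 3 probes each, stood at 3.92, 3.25, 3.77 and 3.45 (SDs of 0.14 to 0.40), and the sixth and seventh at 3.05 and 2.73. An island at 0.58 lay between them. Farther along, islands were at 1.02, at -1.42, at 2.94, then at 0.51, 0.54 and 0.04, and the last, of 14 probes, was at -1.31 (SD 0.81). With normexp 6 of the 14 were at 2 or above and after loess 3, beside 6.10% and 5.61% of all islands. Among islands of at least 5 probes, 1 of 7 was strongly enriched, beside 5.31% of all.

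Hox clusters, which hold the transcription factors that pattern the body axis, had a median near that of the array. Their 72 islands had a median of -0.08, with 5 (6.94%) strongly enriched and 9 (12.5%) low, where 9.95% and 12.8% of all islands were. No island of the 18 at Hoxa was strongly enriched, and their values ran from -1.83 to 1.13. Hoxb had 2 of 20 (up to 2.79), Hoxc 1 of 17 (2.72) and Hoxd 2 of 17 (up to 2.63), and none of the 72 reached 3. Enriched islands here had 3 to 6 probes. With normexp 1 of the 72 (1.39%) was at 2 or above and after loess 2 (2.78%), beside 6.10% and 5.61% of all islands.

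Histone gene clusters held the lowest stretch of the array, although that call rests on dim signals. These windows were drawn after the values had been seen. Of 23 islands in 4 stretches of chromosomes 13 and 3, 19 (82.6%) were low, where 12.8% of all islands were, and their median was -1.95. The run with the most low islands was among them, 12 islands over 229 kb of chromosome 13 from 23542631 to 23771457, at -3.30 to -1.12. The IP signal was well above background for 43.0% of the 93 probes, against 94.1% of all probes in islands. With normexp no island of the 23 was at -1 or below and the median was -0.17, after loess 6 were and it was -0.42, and 6 islands had enough detected probes to keep a value, 3 of them low. Which of these levels is right was not tested.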

How the data were processed

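Phenol and chloroform extracts of wild type J1 cells were sonicated and labelled, per the labels' protocols, with Cy5 for the immunoprecipitated and Cy3 for the whole DNA on 1 array, with no dye swap. The spots were quantified as intensity with Agilent Feature Extraction, version 10.7.3.1 per the file headers and 9.1 per the submitters' processing notes. That program subtracted the background and applied linear dye factors of 3.44 to Cy3 and 9.82 to Cy5, per the file headers. It also wrote a log10 ratio per spot, deposited with the signals and not used. A value table deposited by the authors holds the linear ratio of processed Cy5 to Cy3, which matched the scanner values of this array within 5.0e-09. Its 3 columns of other arrays were not used. Median raw signals were 310 over a background of 43 in Cy3 and 133 over 56.5 in Cy5, and 99.7% and 94.1% of probes were well above background.

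Left out were 5950 control spots, 442 probes lacking a position and 6 outlier-flagged probes. No probe was saturated, and 79 probes listed with their end before their start were turned round. The log2 ratio was centred on the array median, with no loess or quantile step, and averaged over islands of at least 3 probes. The 1517 positioned probes outside islands were kept apart. No test was made, since there is 1 array, and shares carry exact Clopper-Pearson intervals at 95%. The island building was tested on simulated data.

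No source used here names the genome build, and the positions fit mouse build mm8. Loci were named from windows written for that build. As a check, the order and spacing of gene ends in the GRCm38.p6 table were set against the islands within 5 Mb of each window: a median of 58.7% of islands fell within 800 bp of a gene end at the best single shift and 11.9% at other shifts, with the lowest share, 19.0%, at Igf2r. At Mest the best shift held 23 of 57 islands and another shift 16, and at Igf2r 8 of 42 and 4. At the best shift the 150 islands of the windows lay within 55 kb of the genes named. The windows were written around those genes, so this does not show that an island belongs to the gene named. The protocadherin window was moved and the histone windows were added after values were seen. Members and lists were chosen with earlier results of these data known.

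Single islands were named by rule: the 12 highest and 12 lowest of at least 5 probes, the extremes of 15 or more probes, the 5 with the most probes, the 5 least even, and the strongly enriched ones in imprinted windows. Islands that lead a run, an end of a list or a neighbouring value were added after their values were seen. Alternatives were joining distances of 250 and 1000 bp, at least 5 probes, the median over probes, normexp background correction (offset 50) and an intensity loess (span 0.3) in limma 3.58.1 with R 4.3.3, and detected probes only. Other steps used Python 3.11.15, pandas 2.3.3 and scipy 1.17.1.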

Additional observations from a re-analysis of the deposited data

Results flagged for a closer look

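Probes outside the islands, which no comparison above used, were more often enriched than those inside. Of the 442 probes that the array gives no position, 36.7% (exact 95% interval 32.1 to 41.3%) lay at 2 or above, with a median of 1.31. Of the 1517 positioned probes in runs of fewer than 3, 37.0% (34.6 to 39.5%) did, with a median of 1.10. Among probes in islands the share was 10.4%. What lies at the probes without a position was not examined.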

How the results depend on the processing

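No paired analysis was possible because there is 1 array and no replicate number. Joining at 250 bp gave a strongly enriched share of 9.40%, a low share of 14.1% and a difference of short minus long islands of 0.55. With at least 5 probes the strongly enriched share was 5.31% and the interquartile range 1.17, against 1.37 as reported, and short minus long islands had no value. The median over probes gave a low share of 16.5% and a range of 1.48. Normexp gave shares of 6.10% and 2.10%, a range of 0.78, short minus long 0.38, X minus autosomes 0.45, edge minus centre 0.10 and a median of the 12 highest islands of 3.63, against 4.56. Loess gave 5.61%, 5.70%, 1.02, 0.48, 0.83, 0.24 and 2.94 for the same quantities. Detected probes alone gave a low share of 8.41%, a range of 1.26, short minus long 0.46, X minus autosomes 0.44 and edge minus centre -0.079. Signs within 1 SD over probes also turned at 3 imprinted islands, Gnas from 0.51 to -0.47 with joining at 250 bp, Grb10 from 0.23 to -0.022 with the median over probes and Zrsr1 from -0.60 to 0.18 after loess. Joining at 1000 bp merged the Gnas island at -0.40 with its neighbour, to 0.58. It gave a strongly enriched share of 9.96% and a low share of 12.6%, both within the intervals of those shares. The interquartile range was then 1.36, short minus long 0.70, X minus autosomes 0.28 and edge minus centre -0.12. The sign of edge minus centre thus rests on the background and intensity steps; the cause was not tested. The share of imprinted islands at 2 or above, 48.8%, was 39.0% with normexp and after loess and between 46.3% and 20 of 40 islands otherwise. A single array, without a dye swap, limits every value, and the Cy5 signal near background limits the low ones.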
